A study of Mus musculus with 87 samples.

Results

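Cdx2, Gata2, Gata3, Eomes, Tfap2a, Tfap2c, Elf5 and Hand1 encode transcription factors of the trophectoderm, the outer layer of the blastocyst. They were chosen by these 8 symbols out of the 55487 genes of the count tables and each symbol was found once. Their transcripts were followed through 5 mouse RNA-seq experiments (41 libraries), and peaks of the homeobox protein OBOX4, of DUX and of 3 histone marks were read at their starts.

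The experiments addressed whether Obox4 and Dux, homeobox genes expressed when the embryonic genome is first transcribed, act redundantly. PlaB-treated cells formed the largest set, with 3 libraries each from double KO, Dux KO, Obox4 KO and WT mouse embryonic stem cells (mESCs) of 129/Ola background, all grown in pladienolide B (PlaB), a splicing inhibitor that brings mESCs toward a totipotent blastomere-like state. Each KO genotype was a line grown from single cells, the double KO line was made from the Obox4 KO line, and no RNA library of untreated KO cells was analysed, so a clone and its genotype cannot be told apart. Induced cells were a clonal mESC line carrying a doxycycline-driven, FLAG-tagged Obox4 transgene, sampled at 0, 12 and 48 h (3 libraries each). DUX peaks came from other mESCs, which carried a doxycycline-driven, FLAG-tagged Dux transgene. Histone peaks came from Obox4 KO and WT mESCs, each with and without PlaB. Pools of B6D2F1 2-cell embryos (2 libraries each) had been injected with antisense oligonucleotides (ASOs) against Obox4 and Dux (double KD), the same with codon-optimised Obox4 mRNA (rescue), Dux alone (Dux KD), Obox4 alone (Obox4 KD) or a scrambled sequence (scramble). The single KD embryos received less ASO than the other groups, so dose and target cannot be told apart there. Morulae were double KD or scramble (2 libraries each). Single 2-cell blastomeres were Obox4 KO, heterozygous (Het) or WT (2 libraries each), and all of them lacked Dux. The labels do not say that replicates came from separate cultures or litters, so p-values measure only the spread between these libraries.

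Library totals ran from 14283083 to 104864947 counts, and several libraries did not follow their label or their group. Reads on the 39 annotated Obox4 copies were lower in the PlaB Obox4 KO libraries (4.68, 3.65 and 11.9 CPM, counts scaled to library size) than in WT (17.0, 15.6 and 15.6 CPM), with the third KO library nearest to WT. Fractional reads of the repeat tables, which keep multi-mapping reads, gave 5.35, 4.67 and 16.1 CPM in Obox4 KO and 125.7, 126.0 and 119.7 CPM in WT. In double KO cells the Obox4 copies held 0.192, 0 and 0.186 CPM and in Dux KO cells 0.130, 0.116 and 0.124 CPM, both below every Obox4 KO library and overlapping each other, so that Obox4 reads did not separate double KO from Dux KO cells. The third Obox4 KO library correlated with its 2 replicates at Pearson r = 0.958 and 0.959 across genes, against 0.997 between those 2, and each result that rests on it is also given without it. The third double KO library was the shallowest and correlated with its replicates at 0.965 and 0.967. Reads on Duxf3, the Dux gene, were 0 in every PlaB Dux KO and double KO library. In 2-cell embryos labelled Obox4 KD the Obox4 copies stood at 68.0 and 83.5 CPM, against 68.4 and 76.0 CPM in scramble. Morulae labelled double KD held 3.75 and 7.93 CPM of Obox4, against 0.321 and 0.351 CPM in scramble, and blastomeres labelled Obox4 KO held 19.4 and 27.9 CPM, against 20.7 and 31.0 CPM in WT. For these embryo groups the names below are those of the labels.

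The trophectoderm is the first epithelium of the embryo and gives rise to the trophoblast of the placenta, while the inner cells keep the pluripotency factors. In outer cells, polarity blocks Hippo signalling, YAP enters the nucleus with TEAD4, and TEAD4 switches on Cdx2 and Gata3, with TFAP2C acting beside it. CDX2 and EOMES, with ELF5, then keep trophoblast stem cells dividing, while GATA factors and HAND1 take part in differentiation toward giant cells. DUX and OBOX4 act earlier, at the 2-cell stage, and mESCs normally hold the trophectoderm programme at a low level.

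OBOX4 peaks lay near the starts of 3 of the 8 genes. CUT&RUN against FLAG in the induced cells (3 replicates, peaks called by the authors in each) placed a peak within 3000 bases of the start of Cdx2, Eomes and Tfap2c in all 3 replicates, and 17.2% of 55364 gene starts had such a peak in at least 2 replicates. At Cdx2, a caudal-type homeodomain factor that maintains the trophectoderm and represses Oct4 (chr5:147300805-147307270, minus strand, GRCm38), the peak lay in an intron with summits 2405, 2460 and 2352 bases inside the gene. Its enrichment over background was 3.97, 4.63 and 3.63, with −log10 q of 4.34, 4.81 and 4.26. At Eomes, a T-box factor needed for trophoblast growth (chr9:118478212-118486132, plus strand), summits lay 2893, 2824 and 2819 bases inside the gene, also in an intron, with enrichment 4.11, 4.54 and 5.12. The bases that the peaks of all 3 replicates share at these 2 genes are shown because they are the sequence OBOX4 covered near the starts of a factor that fell on induction of Obox4 (Cdx2) and of one that had higher values (Eomes). Cdx2 is chr5:147304755-147304952 (60.6% GC) and Eomes is chr9:118480948-118481189 (52.5% GC), both read on the plus strand from GRCm38.

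Cdx2 OBOX4 peak: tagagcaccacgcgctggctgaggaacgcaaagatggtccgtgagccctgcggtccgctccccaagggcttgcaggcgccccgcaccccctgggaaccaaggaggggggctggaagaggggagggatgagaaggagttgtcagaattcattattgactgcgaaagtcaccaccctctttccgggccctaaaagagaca

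Eomes OBOX4 peak: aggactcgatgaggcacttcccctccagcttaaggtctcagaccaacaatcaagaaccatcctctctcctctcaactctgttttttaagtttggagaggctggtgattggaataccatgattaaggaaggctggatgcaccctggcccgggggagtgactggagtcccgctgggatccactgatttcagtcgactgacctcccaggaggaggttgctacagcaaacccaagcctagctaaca

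Neither stretch held, on either strand, the Otx-type homeodomain core GGATTA, the GATA-factor core AGATAA, the TFAP2 palindrome GCCNNNGGC or the TEAD core GGAATG. No letter is therefore in capitals. The paper predicts a longer OBOX4 motif from its strongest peaks, and that motif was not among the letters searched for here. The Eomes stretch holds CTGGGATC, with which that motif can begin, but the base after it departs from the motif. The absence of GGATTA therefore does not show that OBOX4-like letters are absent. Windows of 201 bases at 27713 OBOX4 summits of the first replicate held the homeodomain core in 14.4% of cases, the GATA-factor core in 10.2%, the TFAP2 letters in 8.96% and the TEAD core in 13.3%.

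At Tfap2c, an AP-2 factor that activates trophectoderm genes together with TEAD4 (chr2:172549593-172558622, plus strand), the OBOX4 peak had enrichment 6.17, 6.28 and 3.44, above the Cdx2 and Eomes peaks in replicates 1 and 2. Its summits lay 84, 101 and 67 bases before the nearest annotated transcript start, in an untranslated exon in replicates 1 and 2 and in an intron in replicate 3. Gata2 (chr6:88193891-88207032, plus strand), a zinc-finger factor of trophoblast and blood, had its peak outside the window, 4618, 4721 and 4762 bases into the gene, but only 175, 278 and 319 bases after an internal transcript start. Tfap2a (chr13:40715302-40738376, minus strand), a paralogue of Tfap2c that also acts in surface ectoderm and neural crest, likewise had summits 4263, 4241 and 4454 bases in and close to an internal start. Hand1 (chr11:57828705-57832818, minus strand), a basic helix-loop-helix factor of giant cells, had its nearest peak 6601, 6663 and 6683 bases away, beyond the end of the gene, with enrichment 10.5, 8.59 and 7.68. For Gata3 (chr2:9857078-9890034, minus strand), a zinc-finger factor switched on beside Cdx2, the nearest peak of the list was 10342, 65502 and 10339 bases from the gene start. Its peaks in replicates 1 and 3 lay within 3000 bases of an internal transcript start. Their summits were 10396 and 11406 bases into the gene in replicate 1 and 10470 bases in replicate 3, and replicate 2 had no peak there. Elf5 (chr2:103411688-103450989, plus strand), an ETS factor that guards trophoblast identity, had its nearest peak 38810 bases away or farther in each replicate. No DUX peak fell within 3000 bases of any of the 8 starts, where 0.883% of gene starts had one. The nearest DUX peaks were between 18262 bases (Hand1) and 669836 bases (Tfap2c) away in the single DUX list.

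RefSeq promoters (250 bases before to 50 after a start, GRCm38) were given for 6 of the 8 genes, 9 promoters in all. TFAP2 letters occurred in those of Cdx2, Gata2 and Gata3, and in 16.6% of 32851 promoters. TEAD letters occurred in those of Gata2 and Elf5, and in 14.7% of promoters. Neither the homeodomain core (7.06% of promoters) nor the GATA-factor core (11.2%) occurred in any of the 9. Gata3 held 3 TFAP2 matches, the most of the 9. Its promoter lies at an internal transcript start, not at the gene start used for the peak windows. The 250 bases before that internal start are shown for these matches (chr2:9878601-9878850, minus strand, 70.0% GC, TFAP2 letters in capitals).

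Gata3 promoter: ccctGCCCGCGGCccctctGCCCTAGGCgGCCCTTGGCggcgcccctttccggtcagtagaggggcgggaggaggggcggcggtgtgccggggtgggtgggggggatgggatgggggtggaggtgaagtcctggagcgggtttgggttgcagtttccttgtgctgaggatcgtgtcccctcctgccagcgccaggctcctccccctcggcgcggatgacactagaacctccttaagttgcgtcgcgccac

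An OBOX4 peak of 1 replicate overlapped this promoter, at enrichment 2.83. Peaks of 3 replicates overlapped the internal promoter of Gata2 and that of Tfap2a. A match of letters is a description of the sequence and not a mapped site.

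In PlaB-treated cells 6 of the 8 factors had their highest mean CPM in the double KO, and Tfap2a and Elf5 had it in the Obox4 KO. A change was called at an adjusted p of at most 0.01 (edgeR's quasi-likelihood test with Benjamini-Hochberg adjustment over all genes tested), provided that the log2 fold change was also at least 1 in size. Against WT, 5 of the 8 genes rose in double KO cells: Gata2 44.7-fold, Hand1 13.9-fold, Cdx2 7.57-fold, Gata3 6.33-fold and Tfap2c 5.41-fold. Of the 22328 genes tested, 9.25% were called higher in this comparison. The median log2 fold change was 2.65 over the 8 genes and −0.06 over all genes tested. In bulk libraries a larger share of cells of one type and more RNA per cell cannot be told apart.

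**Figure D1:**
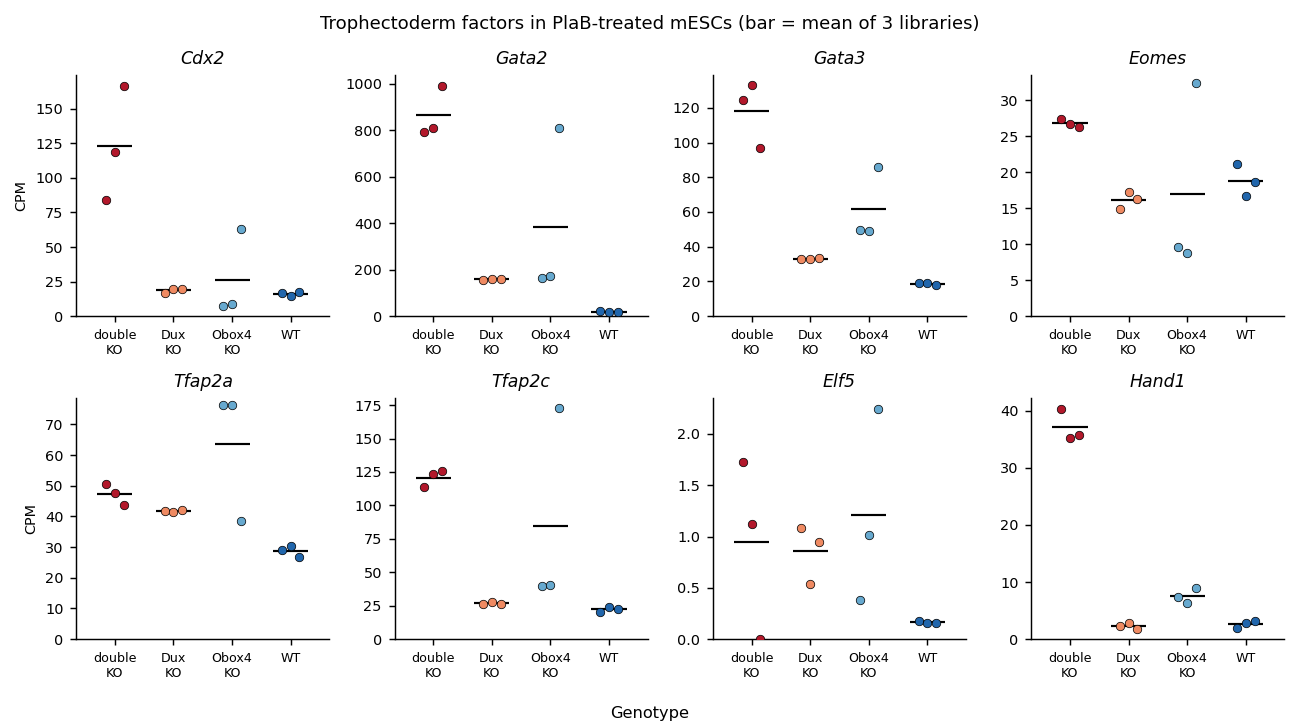
TMM-scaled CPM (vertical axes) of the 8 factors in each PlaB-treated library, with double KO, Dux KO, Obox4 KO and WT cells from left to right. Points are libraries and bars are means of 3, and Gata2 lay between 794 and 992 CPM in double KO cells, against 18.8 to 20.3 CPM in WT.

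Gata2 had 794, 811 and 992 CPM in double KO cells, 158, 160 and 162 CPM in Dux KO cells, 165, 171 and 810 CPM in Obox4 KO cells, and 20.3, 19.1 and 18.8 CPM in WT cells. Every KO library stood above every WT library, and the third Obox4 KO library was as high as the double KO libraries. The log2 fold change against WT was 5.48 ± 0.55 (SE) in double KO cells (edgeR adjusted p = 9.13e-06), 3.04 ± 0.50 in Dux KO cells (edgeR adjusted p = 0.000964) and 4.30 ± 0.52 in Obox4 KO cells (edgeR adjusted p = 0.00012). Without the third Obox4 KO library the last of these was 3.12 (edgeR adjusted p = 7.21e-09).

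Hand1 had 40.4, 35.2 and 35.8 CPM in double KO cells, 2.29, 2.75 and 1.81 CPM in Dux KO cells, 7.35, 6.40 and 8.88 CPM in Obox4 KO cells, and 1.93, 2.84 and 3.24 CPM in WT cells. The double KO libraries were far above the rest, Obox4 KO libraries were above WT, and Dux KO libraries overlapped WT. Its log2 fold change against WT was 3.79 ± 0.23 in double KO cells (edgeR adjusted p = 2.13e-07) and 1.49 ± 0.22 in Obox4 KO cells (edgeR adjusted p = 0.000385), while the Dux KO value was −0.23 (edgeR adjusted p = 0.56). Without the third Obox4 KO library the Obox4 KO value was 1.35 (edgeR adjusted p = 0.000293). With all libraries fitted, Hand1 was the only factor called for the interaction of the Obox4 and Dux labels. Its change from Dux KO to double KO exceeded that from WT to Obox4 KO by 2.53 ± 0.30 on the log2 scale (edgeR adjusted p = 0.000785). For this interaction 1 of the 8 genes was called higher, and 0.793% of all genes tested. Without the third Obox4 KO library 4 of the 8 were called higher, Hand1 among them, and 1 lower. Obox4 reads were as low in Dux KO as in double KO cells, so the interaction compares lines by their labels.

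Cdx2 had 83.8, 119 and 167 CPM in double KO cells, 17.0, 19.9 and 19.3 CPM in Dux KO cells, 7.29, 8.64 and 62.7 CPM in Obox4 KO cells, and 16.6, 14.8 and 17.3 CPM in WT cells. The double KO libraries were above all others, and 2 of the Obox4 KO libraries were below every WT library while the third was above them. Cdx2 rose in double KO cells (log2 fold change 2.92 ± 0.65, edgeR adjusted p = 0.00325). Leaving out any 1 of the WT libraries, or the third double KO library, ended that call. In Obox4 KO cells the value was 0.69 ± 0.61 (edgeR adjusted p = 0.449), and without the third library it was −1.03 ± 0.23 (edgeR adjusted p = 0.00427), a call in the other direction.

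Gata3 had 125, 133 and 96.7 CPM in double KO cells, 33.0, 32.8 and 33.6 CPM in Dux KO cells, 49.7, 48.9 and 86.1 CPM in Obox4 KO cells, and 18.9, 19.1 and 18.2 CPM in WT cells. The 4 genotypes did not overlap. Its log2 fold change was 2.66 ± 0.21 in double KO cells (edgeR adjusted p = 1.19e-06) and 1.72 ± 0.20 in Obox4 KO cells (edgeR adjusted p = 8.8e-05) and 1.40 there without the third library. The Dux KO value of 0.83 ± 0.20 (edgeR adjusted p = 0.0115) was not called.

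Tfap2c had 113.5, 123.3 and 125.5 CPM in double KO cells, 26.2, 27.9 and 26.6 CPM in Dux KO cells, 39.7, 40.7 and 173 CPM in Obox4 KO cells, and 20.3, 23.9 and 22.8 CPM in WT cells. The third Obox4 KO library was the highest of the 12. The log2 fold change was 2.44 ± 0.45 in double KO cells (edgeR adjusted p = 0.000926) and 1.92 ± 0.44 in Obox4 KO cells (edgeR adjusted p = 0.00691). Without the third library the Obox4 KO value was 0.85, under the fold limit.

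Tfap2a followed another order, with 50.6, 47.6 and 43.6 CPM in double KO cells, 41.9, 41.6 and 42.2 CPM in Dux KO cells, 76.3, 76.2 and 38.7 CPM in Obox4 KO cells, and 29.1, 30.3 and 26.9 CPM in WT cells. It was highest in 2 of the Obox4 KO libraries, and every KO library was above WT. Only the Obox4 KO change was called (log2 fold change 1.15 ± 0.20, edgeR adjusted p = 0.00148), and it was 1.40 without the third library. That call was lost without the second Obox4 KO library (0.996, edgeR adjusted p = 0.00778, under the fold limit), without the third WT library (edgeR adjusted p = 0.0102) and when only these 2 groups were fitted (edgeR adjusted p = 0.0163).

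Eomes had 27.4, 26.8 and 26.3 CPM in double KO cells, 14.8, 17.2 and 16.3 CPM in Dux KO cells, 9.66, 8.72 and 32.4 CPM in Obox4 KO cells, and 21.1, 16.7 and 18.7 CPM in WT cells. It passed no test against WT with all 12 libraries. Without the third Obox4 KO library it fell in Obox4 KO cells by 1.04 on the log2 scale (edgeR adjusted p = 5.85e-05), as Cdx2 did. Elf5 was near the floor, with 1.73, 1.12 and 0 CPM in double KO cells, 1.08, 0.542 and 0.947 CPM in Dux KO cells, 0.381, 1.02 and 2.24 CPM in Obox4 KO cells, and 0.181, 0.161 and 0.159 CPM in WT cells. The WT libraries held 6 counts each, and edgeR with its low-count filter called no Elf5 change (log2 fold change 2.83 in Obox4 KO cells, edgeR adjusted p = 0.0247, and log2 fold change 2.64 ± 0.84 in double KO cells, edgeR adjusted p = 0.0241). Without the third double KO library, the one at 0, Elf5 was called there at 3.05 (edgeR adjusted p = 0.00359). DESeq2 called Elf5 in Obox4 KO cells (2.82, adjusted p = 0.00206) and in double KO cells (2.55, adjusted p = 0.00455), and so did edgeR with no low-count filter (adjusted p = 0.00228 and 0.00285). In Dux KO cells among the alternatives run it was called only when these libraries and WT alone were fitted, or without the third Obox4 KO and double KO libraries (2.34 in both fits).

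**Figure D2:**
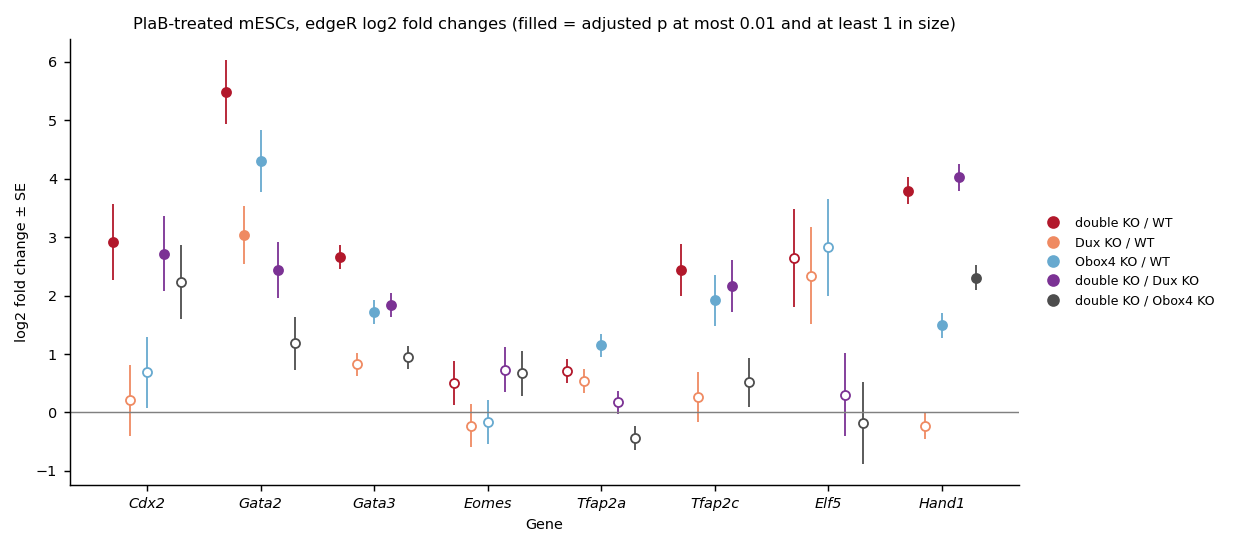
log2 fold change (vertical axis) ± SE from edgeR for each factor (horizontal axis) in 5 PlaB contrasts, with filled points for called changes. Double KO against WT and double KO against Dux KO each have 5 filled points, and Dux KO against WT has 1, Gata2.

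Counted by genotype, 5 of the 8 genes were called higher in Obox4 KO cells (4.92% of all genes) and 1 in Dux KO cells (1.62% of all genes), with median log2 fold changes of 1.60 and 0.41. Without the third Obox4 KO library, Obox4 KO cells had 4 genes higher (Gata2, Gata3, Tfap2a and Hand1) and 2 lower (Cdx2 and Eomes). Of the 23383 genes tested in that fit, 1561 were called higher and 1623 lower. Against Dux KO cells, double KO cells had 5 genes higher (5.07% of all genes): Hand1 by 4.02 ± 0.23, Cdx2 by 2.71 ± 0.64, Gata2 by 2.44 ± 0.48, Tfap2c by 2.17 ± 0.44 and Gata3 by 1.84 ± 0.20 on the log2 scale. Their edgeR adjusted p ran from 2.09e-06 for Hand1 to 0.00926 for Cdx2. Leaving out any 1 library of either group cut this count to 2 or 3, with Gata3 and Hand1 called in each of those fits. Against Obox4 KO cells, 1 gene was called higher in double KO cells (1.64% of all genes), Hand1 at 2.30 ± 0.21 (edgeR adjusted p = 3.2e-05). Without the third Obox4 KO library this count was 6 (Cdx2, Gata2, Gata3, Eomes, Tfap2c and Hand1), with Cdx2 at 3.94 and Hand1 at 2.44. Of the 23383 genes tested in that fit, 1571 were called higher. The interaction count there was 5, while 1436 of all genes tested were called higher and 787 lower. Those 5 were Cdx2 at 3.73, Hand1 at 2.66, Eomes at 1.77 and Tfap2c at 1.32, all higher, and Tfap2a at −1.23. Since Obox4 reads were as low in Dux KO as in double KO cells, the contrast of double KO with Dux KO and the interaction compare lines by their labels. These contrasts share libraries, so their counts are not separate evidence.

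Other genes of the trophectoderm pathway also stood higher in double KO cells. Of 25 effector genes of the epithelium (keratins, claudins, tight junctions, transporters), 19 rose and none fell against WT, with a median log2 fold change of 2.4. Examples were Lgals3 at 3.93, Aqp8 at 3.60, Cldn4, a claudin of tight junctions, at 3.24, and the endocytic receptor Lrp2 at 2.73. Summed over the list, effectors stood at 9019 to 10740 CPM in double KO cells, 3338 to 3368 CPM in Dux KO cells, 3901 to 6563 CPM in Obox4 KO cells and 2725 to 2764 CPM in WT cells. In Obox4 KO cells 10 of 25 effectors rose (9 without the third library), and in Dux KO cells 6 did (10 without the third Obox4 KO library). In the fit without that library 1561 of 23383 genes tested were called higher in Obox4 KO cells and 644 in Dux KO cells. Upstream genes moved less, with Tead4 at 1.32 (edgeR adjusted p = 2.11e-06) and Amot at 3.13 (edgeR adjusted p = 0.00239) higher in double KO cells, Tead1 at −1.07 (edgeR adjusted p = 0.000293) lower, and the other 8 of 11 not called. Of 6 trophoblast stem genes 4 rose (Rhox9 at 3.95, Rhox6 at 2.99, Fgfr2 at 2.68 and Satb1 at 1.02), and of 8 tested genes of trophoblast derivatives 5 rose, among them Peg10 at 3.84, Ascl2 at 2.86 and Cdkn1c at 2.52. All 8 of these derivative genes were called higher when the third Obox4 KO library was left out of the fit, as were 2348 of 23383 genes tested.

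The rise was not confined to trophectoderm genes. Of 10 tested paralogues of the factors, Gata6 at 3.01, Elf3 at 2.42 and Gata4 at 2.12 rose in double KO cells and Cdx4 fell by 2.7 on the log2 scale. Markers of primitive endoderm, the other extra-embryonic lineage, rose in 7 of 9 cases, led by Sox7 at 3.76, Sox17 at 3.43, Gata6 and Col4a1 at 2.30, and their summed level was 737 to 1088 CPM in double KO cells, against 244 to 257 CPM in WT cells, with none of the 9 at 0 in any genotype. Gata4 and Gata6 are on both of these lists. In Obox4 KO cells that sum was 195 to 368 CPM and in Dux KO cells 260 to 272 CPM. Of 9 pluripotency genes 5 fell in double KO cells, including Prdm14 by 2.63, Klf4 by 1.75 and Nanog by 1.62 on the log2 scale, and none rose, where 8.79% of all genes tested were called lower. Nanog had 251, 294 and 255 CPM in double KO cells, 688, 692 and 680 CPM in Dux KO cells, 480, 500 and 513 CPM in Obox4 KO cells, and 806, 813 and 843 CPM in WT cells. The third Obox4 KO library, high in Gata2, Cdx2 and Tfap2c, was also high in Krt18 (817 CPM, against 136 and 138 CPM in its replicates), Gata6 (49.1 against 19.0 and 20.3 CPM) and the summed Zscan4 family of 2-cell genes (1084 against 368 and 357 CPM). What part these other cell states have in the factors' levels was not tested.

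Induction of Obox4 for 48 h in mESCs was followed by a fall of 3 trophectoderm factors. Gata2 and Tfap2c had already fallen at 12 h, Cdx2 joined them at 48 h, and none of the 6 factors that passed the low-count filter was called higher. Reads assigned to the annotated Obox4 copies, which the tables do not separate from reads of the transgene, stood at 0.385 to 0.611 CPM at 0 h, 5.00 to 7.11 CPM at 12 h and 7.08 to 8.51 CPM at 48 h.

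Tfap2c had 24.0, 22.7 and 28.3 CPM at 0 h, 11.9, 9.92 and 9.53 CPM at 12 h, and 9.5, 9.33 and 9.09 CPM at 48 h. Both later times lay below every 0 h library, and the 12 h libraries stood just above those of 48 h. Its log2 fold change against 0 h was −1.26 ± 0.13 at 12 h (edgeR adjusted p = 0.000495) and −1.43 ± 0.13 at 48 h (edgeR adjusted p = 7.3e-05). Gata2 had 10.2, 12.02 and 14.5 CPM at 0 h, 6.24, 4.13 and 5.77 CPM at 12 h, and 3.11, 3.31 and 3.58 CPM at 48 h. The 3 times did not overlap. Its log2 fold change was −1.19 ± 0.18 at 12 h (edgeR adjusted p = 0.00577) and −1.88 ± 0.19 at 48 h (edgeR adjusted p = 0.000139). Cdx2 had 2.12, 1.65 and 1.99 CPM at 0 h, 0.693, 1.2 and 1.12 CPM at 12 h, and 0.610, 0.509 and 0.413 CPM at 48 h. These times also did not overlap, at 12 to 29 reads per library after 0 h. The 48 h change of −1.89 ± 0.29 was called (edgeR adjusted p = 0.00189) and the 12 h change of −0.94 ± 0.27 was not (edgeR adjusted p = 0.105).

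**Figure D3:**
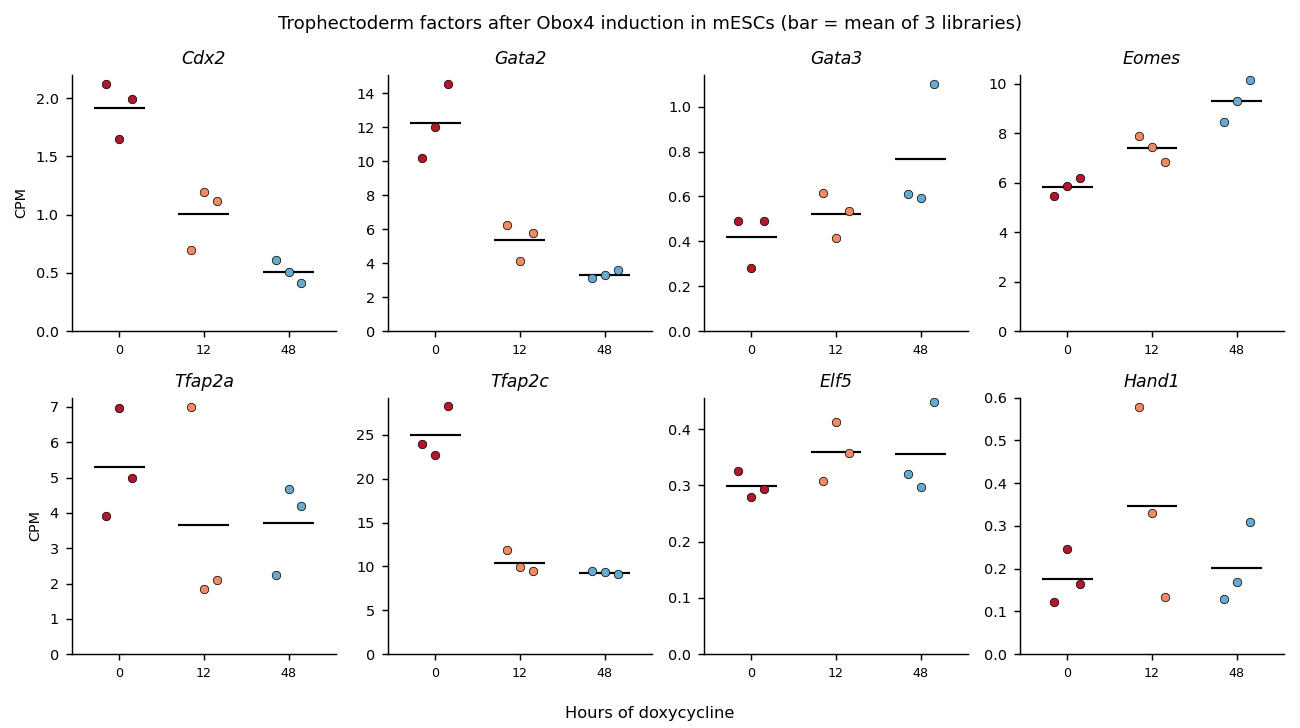
TMM-scaled CPM (vertical axes) of the 8 factors at 0, 12 and 48 h of doxycycline in the Obox4 line, from left to right, with points for libraries and bars for means of 3. Gata2 is lowest at 48 h (3.11 to 3.58 CPM), Tfap2c is lower at both later times than at 0 h, and Eomes runs the other way.

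Eomes went the other way, with 5.46, 5.85 and 6.2 CPM at 0 h, 7.89, 7.44 and 6.85 CPM at 12 h, and 8.44, 9.29 and 10.1 CPM at 48 h. All later libraries were above those of 0 h. At 48 h the log2 fold change was 0.67 ± 0.13 (edgeR adjusted p = 0.00576), under the fold limit and so not called. Gata3 had 0.489, 0.280 and 0.489 CPM at 0 h, 0.616, 0.413 and 0.537 CPM at 12 h, and 0.610, 0.594 and 1.10 CPM at 48 h, and neither change was called. Tfap2a had 3.91, 6.97 and 4.99 CPM at 0 h, 7.01, 1.86 and 2.10 CPM at 12 h, and 2.25, 4.66 and 4.2 CPM at 48 h. The first 12 h library was the high one of its group and the first 48 h library the low one of its group. Across genes, these 2 libraries also stood closer to the other time than to their own: the first 12 h library correlated at 0.992 and 0.993 with the second and the third 48 h library but at 0.979 and 0.977 with its own group. By their reads on Obox4 and Zscan4 these libraries stood with their labels: the first 12 h library had 5.00 and 17.9 CPM, against 6.65 to 7.11 and 21.8 to 22.2 CPM in its replicates, and the first 48 h library 8.51 and 76.0 CPM, against 7.08 to 7.61 and 58.5 to 61.3 CPM in its replicates. Elf5 and Hand1 stayed between 0.122 and 0.577 CPM at all times and were not tested.

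In all, 2 of the 6 tested factors were called lower at 12 h (0.145% of 18625 genes tested) and 3 at 48 h (0.574% of genes). The median log2 fold change at 48 h was −0.98 over the 6 factors and −0.01 over all genes. Cdx2 was not called at 48 h when the third 0 h, the second 48 h or the third 48 h library was left out, and Gata2 was not called at 12 h when any 0 h library, or the second or the third 12 h library, was. Around the factors, no gene of 11 upstream genes and none of 9 pluripotency genes was called at 48 h. Of 23 tested effectors 5 rose, among them Lrp2 at 1.53 and Cgn at 1.51, and 2 fell, among them Fabp3 by 1.69 on the log2 scale, where 3.37% of all genes tested were called higher. Of 5 tested genes of trophoblast derivatives 1 rose, Peg10 at 1.81, and the summed list held 48.2 to 61.1 CPM at 0 h, 91.2 to 179.6 CPM at 12 h and 127.7 to 194.6 CPM at 48 h, with Hsd3b6, Prl2c2, Prl3d1, Synb and Tpbpa at 0 throughout. Primitive endoderm markers rose in 4 of 7 cases (Dab2 at 2.41, Lamb1 at 1.52, Pdgfra at 1.35 and Col4a1 at 1.21), and their sum was 50.8 to 56.9 CPM at 0 h, 89.5 to 92.4 CPM at 12 h and 129 to 137 CPM at 48 h. Fibroblast markers rose in 2 of 3 tested cases (Col1a2 at 2.32 and Thy1 at 2.01), and their sum was 1.02 to 2.12 CPM at 0 h, 3.39 to 5.70 CPM at 12 h and 5.75 to 6.78 CPM at 48 h. Their part in the factors' levels was not tested.

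In 2-cell embryos 1 of the 8 factors was called by edgeR, Hand1 in double KD against scramble, at no more than 2.42 CPM in any library. It had 2.42 and 1.12 CPM in double KD embryos, 1.49 and 0.854 CPM in Dux KD, 0.277 and 0.934 CPM in Obox4 KD, 0.889 and 0.868 CPM in rescue, and 0.184 and 0.575 CPM in scramble. Both double KD libraries, and both Dux KD and rescue libraries, lay above both scramble libraries. The double KD value was called, 4.95-fold higher than scramble (log2 fold change 2.31 ± 0.58, edgeR adjusted p = 0.00458). Without the first double KD library or the first scramble library it was not. Of the 23085 genes tested, 8.42% were called higher in this comparison, and 1 factor of 8 is near that share.

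Gata2 had 20.5 and 21.3 CPM in double KD embryos, 10.9 and 13.4 CPM in Dux KD, 11.3 and 8.14 CPM in Obox4 KD, 13.1 and 16.3 CPM in rescue, and 14.0 and 10.9 CPM in scramble. The double KD libraries were above all others. The log2 fold change against scramble was 0.75 ± 0.17 (edgeR adjusted p = 0.00222), and against Dux KD 0.79 (edgeR adjusted p = 0.00575), both under the fold limit. Tfap2c had 51.8 and 47.6 CPM in double KD embryos, 34.4 and 38.2 CPM in Dux KD, 37.7 and 35.9 CPM in Obox4 KD, 49.5 and 47.6 CPM in rescue, and 44.5 and 41.8 CPM in scramble. Double KD and rescue were above scramble and the single KDs below it, and the double KD value against Dux KD was 0.46 (edgeR adjusted p = 0.00466), under the fold limit.

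Gata3 had 4.13 and 5.84 CPM in double KD embryos, 6.40 and 6.09 CPM in Dux KD, 6.60 and 6.14 CPM in Obox4 KD, 7.60 and 6.48 CPM in rescue, and 6.64 and 7.44 CPM in scramble. It was lowest in double KD, by 0.51 on the log2 scale relative to scramble, and was not called (edgeR adjusted p = 0.0405). Eomes had 10.6 and 10.1 CPM in double KD and 14.9 and 14.4 CPM in scramble, Tfap2a 8.20 and 9.34 CPM in double KD and 7.83 and 9.74 CPM in scramble, and Cdx2 0.427 and 0.262 CPM in double KD and 0.826 and 0.329 CPM in scramble. None of these was called, and Elf5 stayed at or below 0.498 CPM in all 10 libraries.

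No factor was called by edgeR in Obox4 KD (0.412% of genes), Dux KD (4.30% of genes) or rescue (2.67% of genes) against scramble, in double KD against Dux KD (0.754% of genes) or in rescue against double KD (4.37% of genes). At an unadjusted p under 0.05 these comparisons held 1, 2, 1, 2 and 3 of the 8 factors, and DESeq2 called none in any of them. The interaction of both KDs was called for no factor (0.256% of genes), with Gata2 at 1.15 ± 0.25 (edgeR adjusted p = 0.0183) and Tfap2c at 0.69 ± 0.14 (edgeR adjusted p = 0.0127). At an unadjusted p under 0.05 it held 2 factors, and DESeq2 called 1. Around the factors, Tead4 rose in double KD embryos (log2 fold change 2.37, edgeR adjusted p = 3.89e-08), as did Rhox9 at 2.65 and the effectors Krt7 at 3.04 and Aqp3 at 2.63. By list these were 1 of 11 upstream genes, 1 of 6 trophoblast stem genes and 4 of 23 tested effectors, beside the 8.42% of all genes called higher. The summed effectors stood at 764 to 777 CPM in double KD embryos, against 826 to 848 CPM in scramble, and cumulus and granulosa markers at 5.21 to 5.35 CPM, against 8.67 to 9.51 CPM.

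**Figure D4:**
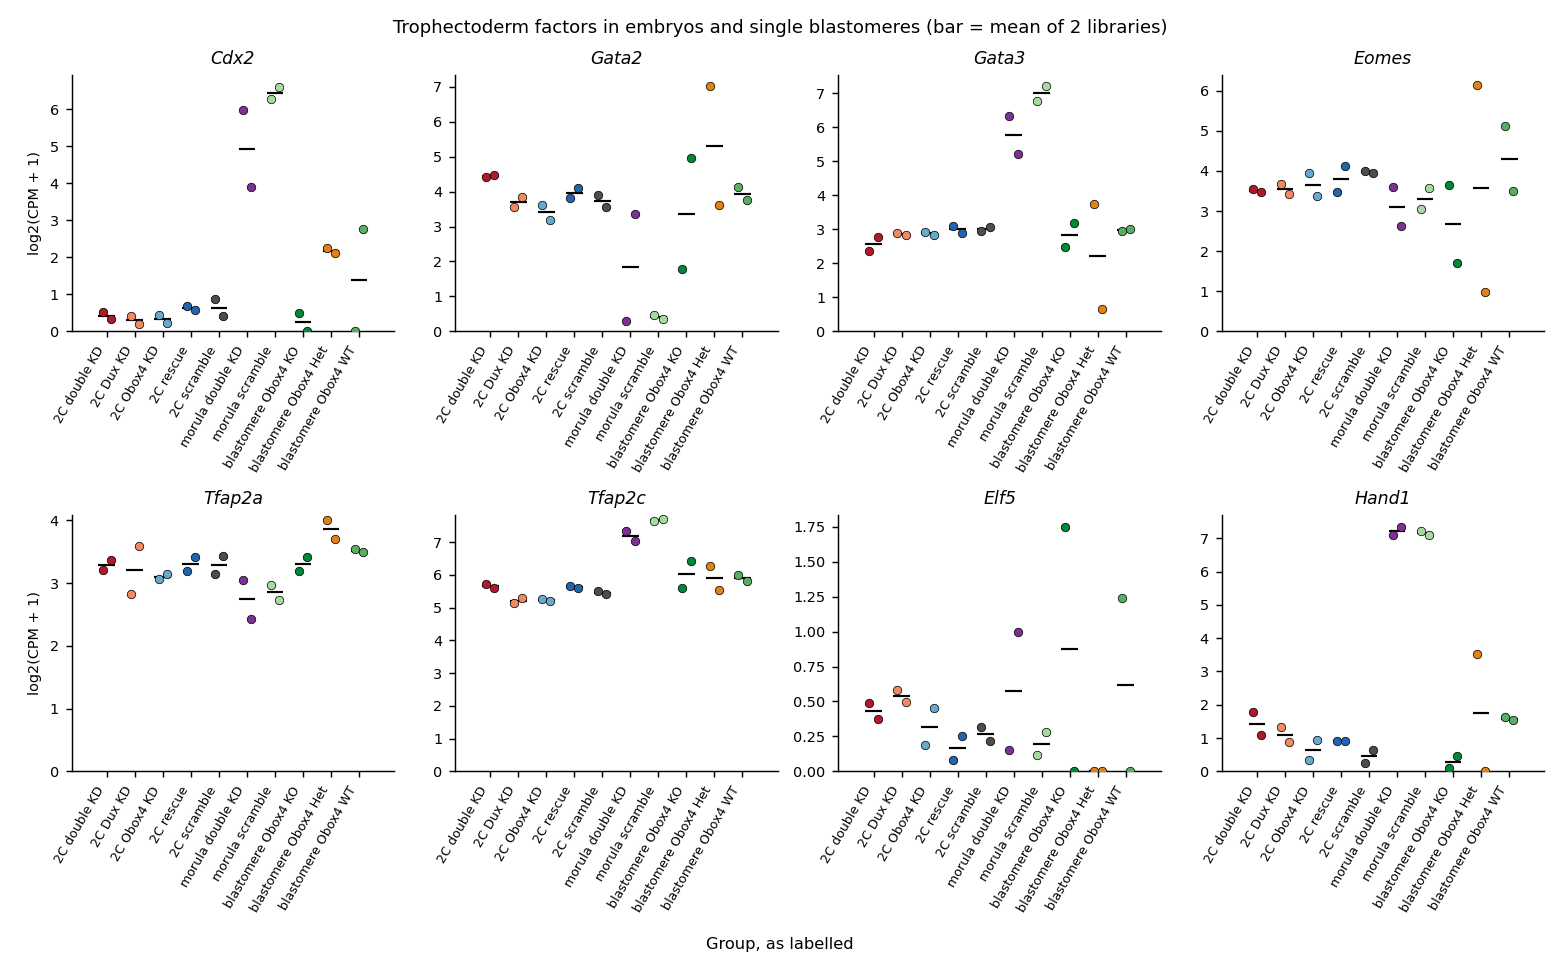
log2(CPM + 1) (vertical axes) of the 8 factors in 2-cell embryos, morulae and single blastomeres, with points for libraries, bars for means of 2, and each scramble or WT group right of the groups set against it. The second double KD morula library departs from the other 3 in Cdx2, Gata2 and Gata3.

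In morulae, the stage at which the trophectoderm programme starts, the 2 double KD libraries differed strongly from each other. Cdx2 had 62.2 and 13.9 CPM in double KD and 76.7 and 96.8 CPM in scramble, Gata3 79.6 and 36.1 CPM in double KD and 109 and 148 CPM in scramble, and Tfap2c 161 and 131 CPM in double KD and 198 and 209 CPM in scramble. In CPM all 3 were lower in both double KD libraries than in both scramble libraries. In TPM (counts per base of gene, scaled to the same total in every library) the groups overlapped for all 3. By that measure Tfap2c had the higher mean in double KD, 31.2 TPM against 25.3 TPM in scramble. Gata2 had 0.228 and 9.27 CPM in double KD and 0.385 and 0.275 CPM in scramble, so that only the second double KD library was high. Hand1 was at 137 and 162 CPM in double KD and 148 and 137 CPM in scramble. In TPM it ran from 40.8 to 82.7 in double KD and from 30.1 to 34.7 in scramble. Eomes, Tfap2a and Elf5 had 11.1 and 5.19, 7.29 and 4.39, and 0.114 and 0.997 CPM in double KD, against 7.30 and 10.9, 6.85 and 5.65, and 0.0856 and 0.214 CPM in scramble. No factor was called by edgeR or by DESeq2, and 0% of all 22142 genes tested were called by edgeR. At an unadjusted p under 0.05 edgeR held 2 factors. Log2 fold changes were −1.19 ± 0.66 for Cdx2 (edgeR adjusted p = 0.376), −1.15 ± 0.40 for Gata3 (edgeR adjusted p = 0.25) and 3.83 ± 1.56 for Gata2 (edgeR adjusted p = 0.285). With only the first double KD library, Gata2 was at −0.54, Cdx2 at −0.48 and Gata3 at −0.69, and none was called. With only the second, Gata2 at 4.70, Cdx2 at −2.73 and Gata3 at −1.92 were all called, on the assumption that the lone library varies like the others. The same 3 were called with both libraries when genes of low count were left in the fit. That second library also held 292 CPM of summed Zscan4, against 0.342 CPM in the first, and its part in these values was not tested.

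No factor was called in single blastomeres. Gata2 had 2.44 and 30.0 CPM in Obox4 KO, 128 and 11.2 CPM in Het, and 16.7 and 12.4 CPM in WT. Eomes had 11.5 and 2.28 CPM in Obox4 KO, 69.9 and 0.970 CPM in Het, and 33.6 and 10.3 CPM in WT. In both genes the first Het cell was the high one and the groups overlapped. Tfap2c, the highest per length in WT cells, had 48.0 and 84.9 CPM in Obox4 KO, 75.6 and 45.9 CPM in Het, and 62.9 and 55.0 CPM in WT. Tfap2a was the steadiest, at 8.15 and 9.64 CPM in Obox4 KO, 15.1 and 12 CPM in Het, and 10.6 and 10.3 CPM in WT. Gata3 ran between 0.582 and 12.5 CPM over the 6 cells, and Cdx2, Elf5 and Hand1 were at 0 in at least 1 cell. edgeR called no factor and 0% of the 19182 genes tested for Obox4 KO, and no factor and 0% of genes for Het. No factor had an unadjusted p under 0.05 in either comparison, and DESeq2 called none.

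Compared per length (TPM, counts per base of gene scaled to the same total in every library), the order of the factors differed between experiments. In induced cells at 0 h Tfap2c led at 17.8 ± 2.72 TPM (SD, n = 3), followed by Gata2 at 5.98 ± 1.32 and Eomes at 3.69 ± 0.39, whose libraries did not overlap those of Gata2. At 48 h Tfap2c (7.20 TPM) and Eomes (6.39 TPM) could not be ranked, since their libraries overlapped. In 2-cell scramble embryos the leading factors were Tfap2c at 9.63 TPM, Eomes at 2.90 TPM and Gata2 at 1.87 TPM. In scramble morulae Hand1 led at 32.4 TPM, then Tfap2c at 25.3, Cdx2 at 17.7 and Gata3 at 14.95 TPM (the last 2 overlapping), and Gata2 stood at 0.0274 TPM. In PlaB-treated cells Gata2 led in double KO (366, 335 and 179 TPM), Dux KO (80.6, 80.9 and 79.5 TPM) and Obox4 KO (93.1, 92.2 and 326 TPM) but was sixth in WT (8.76, 8.34 and 7.34 TPM). The third double KO library was the lowest of its group in TPM and the highest in CPM for Gata2. In WT, Cdx2 led at 16.2 TPM, then Tfap2c at 13.8 and Tfap2a at 13.3 TPM, which overlapped. Elf5 was last in PlaB-treated double KO (0.386 TPM) and WT (0.0645 TPM) cells. Tables were normalized separately, so levels were not tested across experiments.

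Genes whose pattern was most like that of a factor were ranked by Pearson r of log2(CPM + 1), centred within each experiment, over all 41 libraries, which share the same differences between genotypes, and 16674 genes. Hand1 was most like Pkp3 (0.914), Shisa4 (0.874) and Kcnk1 (0.871). For Gata3 they were Ppp4r1 (0.89), Optn (0.86) and Stard10 (0.854), and for Tfap2c Ralgds (0.879), Ctdspl (0.859) and Optn (0.858). Gata2 was nearest to Plec (0.874), the keratin gene Krt18 (0.845) and Grhl1 (0.844), Eomes to Atp2b3 (0.858), Klc4 (0.849) and Kank3 (0.832), and Cdx2 to Atp5e (0.847), Cbr2 (0.835) and F2rl1 (0.829). The nearest genes to Elf5 (Timp2, 0.79) and Tfap2a (Foxm1, 0.739) were less alike.

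Histone marks at the starts were read as the bases that peaks cover within 3000 bases to either side (6001 bases), in 3 replicates each of Obox4 KO and WT cells with and without PlaB. H3K4me3 marks active or poised starts, H3K27ac active ones, and H3K27me3 those held by Polycomb. PlaB went with narrower H3K4me3 in WT cells. Gata2, Gata3, Eomes, Tfap2a, Tfap2c and Hand1 had fewer covered bases in every replicate with PlaB than in any without, 6 of the 8 genes, against 29.0% of all gene starts that did not overlap and 68.3% of the 23462 starts with a peak in any of the lists compared. Of the 8 genes 7 had such a peak, all but Elf5. Around the best-covered annotated transcript start in place of the gene start, Gata2 and Gata3 overlapped in this comparison. The largest step was at Hand1, with 1051, 674 and 428 bases in WT cells with PlaB, against 3528, 2917 and 2604 bases in WT cells without it. Eomes had 3947, 3779 and 3757 bases with PlaB, against 4929, 5001 and 4959 bases without. With 3 replicates against 3, an exact permutation test cannot give a p below 0.1, which is the p of each gene that did not overlap. The whole lists moved too: H3K4me3 peaks of WT cells covered 39128536 to 44065416 bases of the genome with PlaB and 67572298 to 71694234 bases without, and the read depth behind them is unknown.

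**Figure D5:**
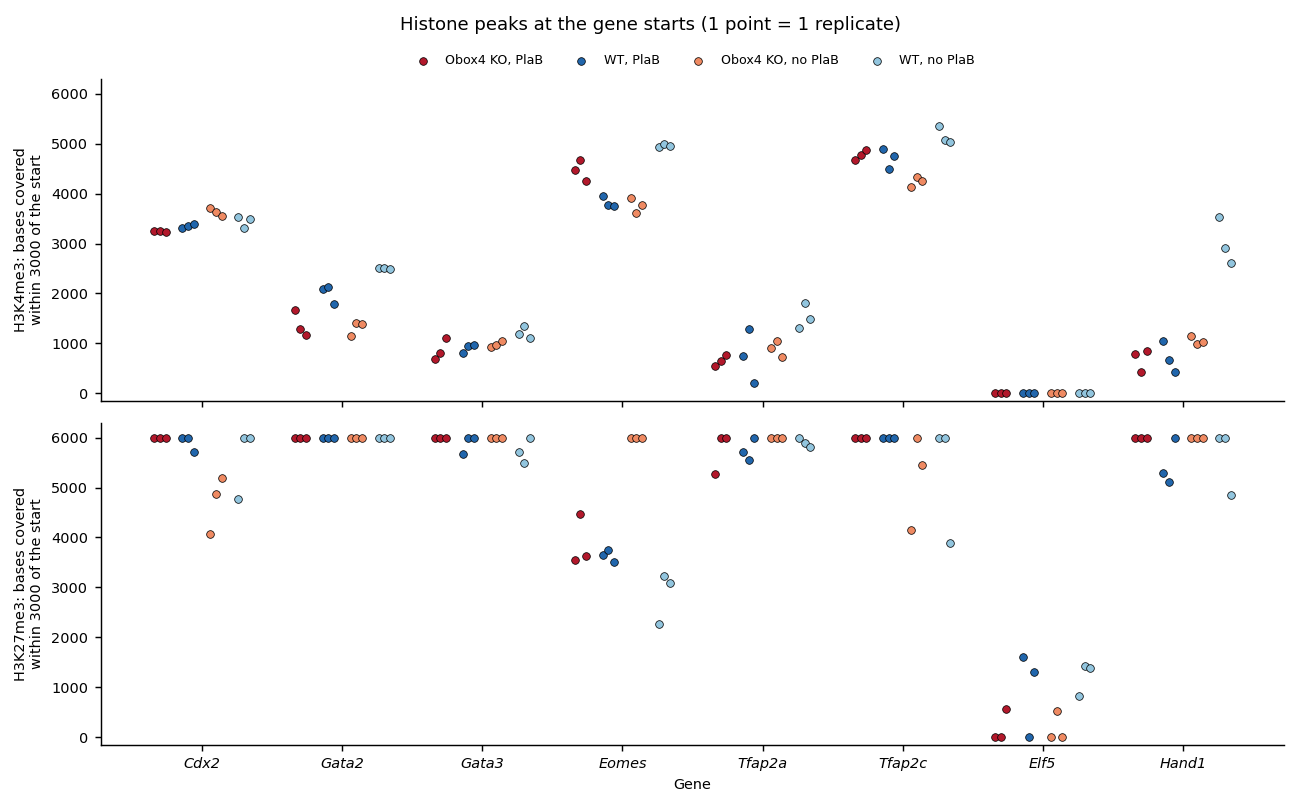
Bases covered by H3K4me3 and H3K27me3 peaks within 3000 bases of each gene start (vertical axes, of 6001), per replicate, for Obox4 KO with PlaB, WT with PlaB, Obox4 KO without PlaB and WT without PlaB from left to right. Gata2 is covered by H3K27me3 over all 6001 bases in each of the 12 replicates.

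Without PlaB, H3K4me3 did not overlap between Obox4 KO and WT at 7 of the 8 starts, all 7 that had a peak, against 21.7% of all gene starts and 50.8% of those with a peak. Cdx2 was wider in Obox4 KO (3708, 3636 and 3553 bases, against 3527, 3314 and 3487 bases in WT). The other 6 were narrower, among them Hand1 with 1139, 989 and 1030 bases in Obox4 KO, against 3528, 2917 and 2604 bases in WT, and Gata2 with 1156, 1415 and 1382 bases in Obox4 KO, against 2511, 2511 and 2499 bases in WT. Around its best-covered annotated transcript start Gata2 overlapped, with 4142, 4185 and 4392 bases in Obox4 KO, against 5145, 4054 and 4855 bases in WT. Over all starts 19.6% were narrower and 2.1% wider in this comparison, and the Obox4 KO lists covered 52295265 to 58764756 bases in total. With PlaB, 3 of the 8 did not overlap, against 13.3% of all starts (9.06% wider and 4.29% narrower) and 34.0% of those with a peak, and the Obox4 KO lists covered 43957285 to 49215981 bases in total. Eomes was wider in Obox4 KO (4465, 4678 and 4248 bases, against 3947, 3779 and 3757 bases in WT). Cdx2 was narrower (3248, 3260 and 3239 bases in Obox4 KO, against 3305, 3353 and 3382 bases in WT), as was Gata2 (1659, 1295 and 1167 bases in Obox4 KO, against 2084, 2131 and 1795 bases in WT). Gata3 overlapped at its gene start with PlaB but not around its best-covered annotated transcript start. There it had 1462, 1305 and 1625 bases in Obox4 KO, against 4075, 3710 and 3025 bases in WT. Elf5 had no H3K4me3 peak in any of the 12 lists. By the largest peak enrichment in place of covered bases, Eomes without PlaB was higher in Obox4 KO (35.9, 62.1 and 40.3) than in WT (34.1, 33.9 and 33.9), the other direction. By that measure 41.1% of all starts with a peak were higher in Obox4 KO without PlaB and 17.0% lower, so the direction over all starts also depended on the measure.

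H3K27me3 covered the Gata2 start fully in all 12 lists. At Eomes it covered 3555, 4473 and 3623 bases in Obox4 KO with PlaB, 3649, 3743 and 3507 bases in WT with PlaB, all 6001 bases in the 3 replicates of Obox4 KO without PlaB, and 2265, 3220 and 3086 bases in WT without PlaB. The 2 conditions without PlaB were thus apart, and those with PlaB overlapped. Counted over the genes, 2 of 8 did not overlap between Obox4 KO and WT without PlaB (Eomes wider, Elf5 narrower, against 11.9% of starts), 1 between WT with and without PlaB (Eomes, wider with PlaB, against 4.70% of starts), and 0 between Obox4 KO and WT with PlaB (10.3% of starts). All 8 starts had an H3K27me3 peak, and of all starts with one, the shares that did not overlap were 35.6% for Obox4 KO without PlaB, 15% for WT and 31.4% for Obox4 KO with PlaB. By the largest enrichment these counts were 7, 2 and 6, all of them higher in Obox4 KO or with PlaB, against 46.7%, 20.8% and 43.4% of all starts with a peak. H3K27ac covered few of these gene starts. Of 8 genes, 0 did not overlap between WT with and without PlaB (5.43% of starts) and 0 between Obox4 KO and WT with PlaB (9.42% of starts). Without PlaB it was 1 (7.29% of starts), Cdx2, with 1043, 1795 and 1726 bases in Obox4 KO, against 0, 0 and 669 bases in WT. Tfap2a had no H3K27ac at its gene start but had it around another annotated transcript start in all 12 lists. The cover there ran from 76 bases (WT without PlaB, replicate 2) to 2457 bases (Obox4 KO with PlaB, replicate 1).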

How the data were processed

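RNA-seq reads were trimmed with fastp 0.23.2 and aligned with STAR 2.7.9a to GRCm38 by the authors, who deposited gene counts made with featureCounts 2.0.1 without multi-mapping reads. Their repeat tables and blastomere gene tables hold fractional, expected counts, deposited as such. Blastomere values were rounded for testing. CUT&RUN peaks were called by the authors per replicate with Bowtie2 2.4.1 and MACS3 3.0.0a6, and the deposited lists give a peak score, fold enrichment (a ratio over background) and −log10 q. Only the 41 RNA-seq libraries and the OBOX4, DUX and histone peak lists were used, 3 IgG samples with conflicting labels were left without a condition, and 0 columns belonged to no sample.

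CPM used TMM-scaled library sizes, and TPM used the gene lengths of the tables. Each experiment was fitted on its own with edgeR 4.0.16 in R 4.3.3 (quasi-likelihood test, filterByExpr, all groups in 1 fit, Benjamini-Hochberg over all genes tested, adjusted p at most 0.01, absolute log2 fold change at least 1, SE from the log2 fold change and its F statistic). DESeq2 1.42.0 was an alternative. Scripts were tested on simulated data. To look for pairing, deviations of same-numbered libraries from their group means were correlated across genes. These values ran from −0.823 to 0.645 in induced cells and from −0.027 to 0.231 in PlaB-treated cells. The numbers were therefore not taken to pair the libraries. Values of low counts carry counting error: 6 reads stand behind each Elf5 value in PlaB WT. The factors, gene lists and marker lists were chosen with earlier results of these data known. Fits without the third Obox4 KO or the third double KO library, and windows at every annotated transcript start, were added after the data were seen. Named genes are the 8 factors, up to 4 genes of smallest p per list, the 3 most alike genes per factor, and Zscan4, Nanog, Krt18 and Gata6 as checks. RefSeq promoters of Tfap2c and Hand1 were not used here.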

Additional observations from a re-analysis of the deposited data

Results flagged for a closer look

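In PlaB-treated cells the difference in Hand1 between lines with and without the Obox4 KO label was larger with Dux absent. The interaction was 2.53 on the log2 scale, and it was called in each fit that left out 1 library. Without the third Obox4 KO library 4 factors, Hand1 among them, were called higher for this interaction and 1 lower. Obox4 reads were as low in Dux KO as in double KO cells, and a clone cannot be told from its genotype. The interaction therefore compares lines by their labels.

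H3K4me3 at the starts of Cdx2 and Eomes differed between Obox4 KO and WT in opposite directions with and without PlaB, in every replicate. At Cdx2 the Obox4 KO mean was above the WT mean by 189.6 covered bases without PlaB, and the difference was −97.7 bases with PlaB. At Eomes the difference was −1199 bases without PlaB and 636 bases with PlaB. Over all starts, H3K4me3 in Obox4 KO was narrower than in WT at 19.6% and wider at 2.1% without PlaB, and narrower at 4.29% and wider at 9.06% with PlaB. The lists as a whole covered 52295265 to 58764756 bases in Obox4 KO and 67572298 to 71694234 in WT without PlaB, and 43957285 to 49215981 in Obox4 KO and 39128536 to 44065416 in WT with PlaB. By the largest enrichment Eomes was higher in Obox4 KO without PlaB (35.9, 62.1 and 40.3, against 34.1, 33.9 and 33.9 in WT) and with PlaB (63.2, 54.5 and 66.2, against 36.8, 32.3 and 40.9 in WT), and Cdx2 overlapped with PlaB (22.4, 16.0 and 21.5 in Obox4 KO, against 22.3, 36.0 and 28.7 in WT). By that measure 41.1% of all starts with a peak were higher in Obox4 KO and 17.0% lower without PlaB. With PlaB 61.3% were higher and 7.19% lower. The differences between the PlaB conditions were not tested.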

How the results depend on the processing

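Counts of called factors changed as follows. Leaving out 1 library of the groups compared at a time, the counts ran from 1 to 2 (2 with all libraries) at 12 h of induction, 2 to 3 (3) at 48 h, 0 to 1 (1) in 2-cell double KD against scramble, 0 to 1 (0) for the 2-cell interaction, 0 to 3 (0) in morulae, 0 to 1 (0) for Het blastomeres, 3 to 6 (5) for PlaB Obox4 KO, 4 to 5 (5) for PlaB double KO, 2 to 3 (5) for double KO against Dux KO (5 without the third Obox4 KO library), 1 to 6 (1) for double KO against Obox4 KO and 1 to 5 (1) for the PlaB interaction. They stayed at 1 for PlaB Dux KO and at 0 for KO blastomeres and the other 2-cell comparisons. In PlaB Obox4 KO cells Cdx2 (0.69) ran from −1.03 to 1.13 when 1 library was left out, the lowest without the third Obox4 KO library (adjusted p = 0.00427). Without the third Obox4 KO and the third double KO library it was −1.05 (adjusted p = 1.25e-06), and counts were 7 for Obox4 KO, 2 for Dux KO, 6 for double KO, 6 for double KO against Obox4 KO and 5 for the interaction. Fitting only the 2 groups compared gave 1 at 12 h, 3 for PlaB Obox4 KO and 2 for PlaB Dux KO. An adjusted p of at most 0.05 with no fold limit gave 3 for 2-cell double KD, 2 each for double KD against Dux KD, rescue against double KD and the 2-cell interaction, 4 at 48 h, 6 for PlaB Obox4 KO, 7 for PlaB double KO, 2 for PlaB Dux KO and 3 for double KO against Obox4 KO. With no low-count filter, 2-cell Dux KD had 1, the 2-cell interaction 1, morulae 3, PlaB Obox4 KO 6, PlaB double KO 6, double KO against Obox4 KO 3 and the PlaB interaction 2. DESeq2 gave 1 for the 2-cell interaction and 6 each for PlaB Obox4 KO and double KO (Elf5 added). The gene rows of the repeat table gave 4 for double KO against Dux KO (Cdx2 lost, adjusted p = 0.0106).

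Replicate numbers were not taken to pair the libraries. With the replicate number as a block, counts were 1 at 12 h, 2 at 48 h, 4 for PlaB Obox4 KO and 2 for double KO against Obox4 KO. With that block no other RNA count of called factors changed, and in the peak lists H3K27me3 between Obox4 KO and WT without PlaB had 3.

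OBOX4 peaks near starts counted 3 genes without any 1 replicate (3 to 3), but 0 at −log10 q of at least 10, 0 within 1000 bases, 6 over the whole gene with 3000 bases upstream, and 6 around any annotated transcript start. By largest enrichment, H3K4me3 in Obox4 KO against WT without PlaB counted 4 (7 by covered bases), with Eomes now higher in Obox4 KO (1 gene), and H3K4me3 at Tfap2c was now higher with PlaB in WT (1 gene). For Obox4 KO against WT with PlaB, H3K4me3 counted 1 within 1000 bases and 5 over all annotated starts (3). H3K27ac at Cdx2 without PlaB was lost at −log10 q of at least 10 and within 1000 bases (0 each). H3K27me3 by largest enrichment counted 2 for WT with against without PlaB (1), 7 for Obox4 KO against WT without PlaB (2) and 6 with PlaB (0). At −log10 q of at least 10 it counted 0 for WT and 3 for Obox4 KO with PlaB, and over annotated starts 1 for the last. Leaving out 1 replicate gave ranges of 6 to 7, 7 to 7 and 3 to 4 for H3K4me3 (WT, Obox4 KO without PlaB, Obox4 KO with PlaB), 0 to 0, 1 to 1 and 0 to 0 for H3K27ac, and 1 to 2, 2 to 4 and 0 to 1 for H3K27me3. The causes were not tested. Few reads limit Elf5, Hand1 and Cdx2 outside PlaB cells and morulae, and Gata3 in induced cells (8 to 32 reads per library). The depth behind the peak lists is unknown.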

Other observations

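In scramble morulae the effectors of the trophectoderm summed to 4410 to 4537 CPM, against 826 to 848 CPM in scramble 2-cell embryos. Double KD morulae held 3258 and 4229 CPM of them, and 452 and 730 CPM of primitive endoderm markers, against 867 and 928 CPM in scramble morulae. In 2-cell double KD embryos the Eomes paralogue Tbr1 was higher than in scramble by 5.16 on the log2 scale, Mixl1, a gene of the primitive streak, by 2.80, and Sox17 was lower by −1.65 (edgeR, all called). In PlaB-treated Obox4 KO cells, with all libraries fitted, the paralogues Tfap2b at 4.68 and Gata4 at 3.01 were called higher than in WT. Without the third Obox4 KO library 4 of 10 tested paralogues were called higher, beside 1561 of 23383 genes tested.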
